A study of Mus musculus with 42 samples.

Results

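The genes described here are the writers, copiers and erasers of cytosine methylation in mouse DNA. They comprise the methyltransferases Dnmt1, Dnmt3a and Dnmt3b, the inactive methyltransferase cofactor Dnmt3l, the hemimethylated-DNA reader Uhrf1 and the 5-methylcytosine dioxygenases Tet1, Tet2 and Tet3. The members were found by matching these 8 gene symbols in the count tables. Each matched a single entry in both count tables, which makes 8 of 18825 genes in experiment 1 and 8 of 19866 in experiment 2. All 8 passed the filter on low counts in both experiments, and the lowest count of any of them in a library was 76 in experiment 1 and 119 in experiment 2.

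RNA was sequenced by RNA immunoprecipitation (RIP-seq) from mouse embryonic stem cells of strain 129S6/SvEvTac, grown on gelatin in serum with LIF. Every line, controls included, is labelled GFP_5xT71BS. The label of the untagged control spells this out as the yGlob [GFP_5xT71BS] reporter with a stably transfected FLAG-Cas9::T2A::Blasticidin, and the labels of the other lines do not. The untagged control carried nothing further, the tagged line carried HA-AVI-Tnrc6a, and the knockout-labelled lines carried HA-AVI-Tnrc6a with Trim71-/- (Trim71KO) or with Ago2-/- (Ago2KO). The labels do not say how many clones stand behind a line. Tnrc6a is the GW182 scaffold that Argonaute proteins bring to mRNAs bound by microRNAs, Ago2 is an Argonaute protein and Trim71 is a stem cell protein that binds mRNAs. RNA bound to anti-HA beads (IP) and RNA of the lysate (input) were sequenced from 3 dishes per line, so each group holds 3 libraries and p-values measure the spread between such dishes. Experiment 1 has 6 groups of untagged, tagged and Trim71KO cells, and experiment 2 has 8 groups, which add Ago2KO cells. The comparisons ask how the RNA levels of these genes, and the association of their RNAs with Tnrc6a, differ without Trim71 or Ago2.

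Cytosine methylation is set by the de novo enzymes Dnmt3a and Dnmt3b, which Dnmt3l stimulates, and is copied at replication by Dnmt1 after Uhrf1 has bound the hemimethylated site. Tet enzymes oxidise 5-methylcytosine and so start its removal. In embryonic stem cells the microRNAs of the miR-290 cluster are known to repress Rbl2, a pocket protein that binds E2F4 and holds down transcription of Dnmt3 genes. Ago2 acts with such microRNAs, and Trim71 binds and silences mRNAs of its own.

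The 3′ arms of the cluster that a search returned with AAGUGC at bases 2 to 7 are shown because they are among the microRNAs that this pathway rests on. Sequences are those of RefSeq with its annotation of GRCm38.p6, written 5′ to 3′ with the seed, bases 2 to 8, in capitals. In the order printed they lie at chr7:3218674-3218697, chr7:3218968-3218989, chr7:3219529-3219550, chr7:3220691-3220712 and chr7:3220815-3220837, all on the plus strand.
mmu-miR-290a-3p: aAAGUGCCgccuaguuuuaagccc
mmu-miR-291a-3p: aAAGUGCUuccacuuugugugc
mmu-miR-291b-3p: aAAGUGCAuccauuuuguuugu
mmu-miR-294-3p: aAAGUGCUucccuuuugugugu
mmu-miR-295-3p: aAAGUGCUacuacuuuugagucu
The seed AAGUGCU is shared by miR-291a-3p, miR-294-3p and miR-295-3p. The seeds AAGUGCC of miR-290a-3p and AAGUGCA of miR-291b-3p differ from it in their final base. All 5 arms hold AAGUGC at bases 2 to 7 because they were picked by it, and any arm of the cluster without it is not shown. The list may be incomplete, so an arm that is missing here does not thereby lack AAGUGC.

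The promoters of the Dnmt3 genes are shown because their RNAs moved in different directions in the Trim71KO cells of experiment 2. In experiment 1 only Dnmt3a among them was called. Each line gives the 250 bases before a RefSeq start site on the gene's own strand, with CpG dinucleotides, the substrate of these enzymes, in capitals. Over all 32851 such windows of the RefSeq promoter table the median was 6 CpG. RefSeq lists 3 start sites for Dnmt3a, and site 2 has its window at chr12:3806910-3807159 and site 3 at chr12:3891494-3891743. The Dnmt3b window lies at chr2:153649199-153649448 and the window of Dnmt3l site 1 at chr10:78042037-78042286, and all these genes are on the plus strand.
Dnmt3a, start site 2: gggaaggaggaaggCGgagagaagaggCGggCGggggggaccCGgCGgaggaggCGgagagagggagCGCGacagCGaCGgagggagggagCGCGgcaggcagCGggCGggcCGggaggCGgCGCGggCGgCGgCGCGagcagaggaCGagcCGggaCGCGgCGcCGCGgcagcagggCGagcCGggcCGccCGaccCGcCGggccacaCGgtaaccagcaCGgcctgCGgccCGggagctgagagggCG
Dnmt3a, start site 3: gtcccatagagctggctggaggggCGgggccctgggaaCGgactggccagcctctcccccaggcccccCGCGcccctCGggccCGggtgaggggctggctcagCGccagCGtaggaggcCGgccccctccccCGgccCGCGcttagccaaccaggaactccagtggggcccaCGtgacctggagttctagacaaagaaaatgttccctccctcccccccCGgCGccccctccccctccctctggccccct
Dnmt3b: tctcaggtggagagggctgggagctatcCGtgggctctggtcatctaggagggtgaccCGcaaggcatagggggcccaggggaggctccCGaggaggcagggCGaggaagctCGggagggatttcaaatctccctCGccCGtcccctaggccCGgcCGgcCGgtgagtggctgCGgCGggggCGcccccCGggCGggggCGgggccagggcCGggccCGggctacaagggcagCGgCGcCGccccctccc
Dnmt3l, start site 1: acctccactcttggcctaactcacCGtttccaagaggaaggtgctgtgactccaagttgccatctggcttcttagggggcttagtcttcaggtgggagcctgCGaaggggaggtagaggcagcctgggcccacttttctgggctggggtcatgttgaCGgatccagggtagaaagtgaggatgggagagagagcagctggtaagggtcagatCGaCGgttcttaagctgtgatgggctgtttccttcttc
The window of Dnmt3a site 2 holds 40 CpG, a number reached by 1.31% of all windows, and that of site 3 holds 15. The Dnmt3b window holds 21 CpG, which 16.3% of windows reach, and the Dnmt3l windows hold 5, 4 and 3. Tet2 had the most CpG of the 8 genes, 51, which 0.067% of windows reach.

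Windows of 300 bases, from 250 before to 50 after a start site, were searched on both strands for the E2F-type words TTTCCCGC, TTTCGCGC, TTTGCCGC and TTTGGCGC. At least 1 of these words stood in 2 of the 15 windows of the 8 genes, against 2.26% of all windows, and both windows belonged to the copying pair. Dnmt1, on the minus strand, had a match at chr9:20952824-20952853 and another at chr9:20952574-20952601, and Uhrf1, on the plus strand, had 1 at chr17:56304117-56304146. Lines follow the gene's strand with the word in capitals, and the first Dnmt1 match reads TTTCGCGC on the opposite strand.
Dnmt1, before the start site: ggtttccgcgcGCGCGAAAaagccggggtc
Dnmt1, after the start site: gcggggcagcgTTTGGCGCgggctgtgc
Uhrf1: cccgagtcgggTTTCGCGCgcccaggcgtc
None of the 4 words was found in the windows of the Dnmt3 or Tet genes.

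Total counts ran from 12587257 to 23657840 per library in experiment 1 and from 16296447 to 21026552 in experiment 2. All 8 embryonic stem cell markers looked up were present, with a summed level of 5951 to 8120 counts scaled to library size (CPM) in input. Ago2 input RNA was lower in cells labelled Ago2KO, with a log2 change of -1.12 (SE 0.0991). Libraries labelled Trim71KO held no less Trim71 input RNA, which differed by 0.23 in experiment 1 and 0.42 in experiment 2, so RNA level does not check that label. Replicate 2 of the tagged input in experiment 1 stands apart. Its genes of at least 10 kb stood at -0.547 relative to those of at most 2 kb, as a median log2 deviation from the mean of the input libraries, while the others of that experiment stood between -0.196 and 0.211. Dnmt3a and the Tet genes have the longest gene models of the 8, from 15457 to 16870 bases, so the main experiment 1 results are also given without it.

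Levels in input were compared between genes as CPM per kilobase of gene length. Uhrf1 and Dnmt3l were the most abundant and Tet3 by far the least in untagged cells. In experiment 1 the means were 69.3 for Uhrf1, 59.1 for Dnmt3l, 39.6 for Dnmt1 and 25.7 for Dnmt3b. Tet2 followed at 15.9, Dnmt3a at 10.8, Tet1 at 8.05 and Tet3 at 0.523 CPM per kilobase. No neighbours in this order overlapped in their 3 libraries. The untagged order of experiment 2 began with Uhrf1 (71.5), Dnmt3l (60.3) and Dnmt1 (31.1) again, and Tet3 (0.607) was again last. There Tet2 (21.7) stood above Dnmt3b (16.7), and Tet1 (9.39) above Dnmt3a (7.6). In Trim71KO cells of experiment 2 Dnmt3l was first, at 94.3 CPM per kilobase.

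All further levels are CPM scaled by TMM, and changes are log2 ratios tested with edgeR's quasi-likelihood test, with a gene called where its p, adjusted by Benjamini-Hochberg over every gene tested, is under 0.05. In Trim71KO input, Dnmt3a RNA was lower in both experiments, while Dnmt3b and Dnmt3l RNA were higher in experiment 2 and were not called in experiment 1. Tet2 was higher in both experiments, and Tet3 in experiment 1. Experiment 1 called 3 of the 8, Dnmt3a lower and both Tet genes higher, where 34% of all genes were called, 16.5% higher and 17.4% lower. Experiment 2 called 4 of 8, 3 higher and 1 lower, where 27.2% of all genes were called, 13.5% higher and 13.7% lower. The median change of the 8 was 0.20 and 0.16, against -0.01 in both experiments over all genes. In bulk RNA, fewer cells that express a gene cannot be told apart from less RNA per cell.

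**Figure D1:**
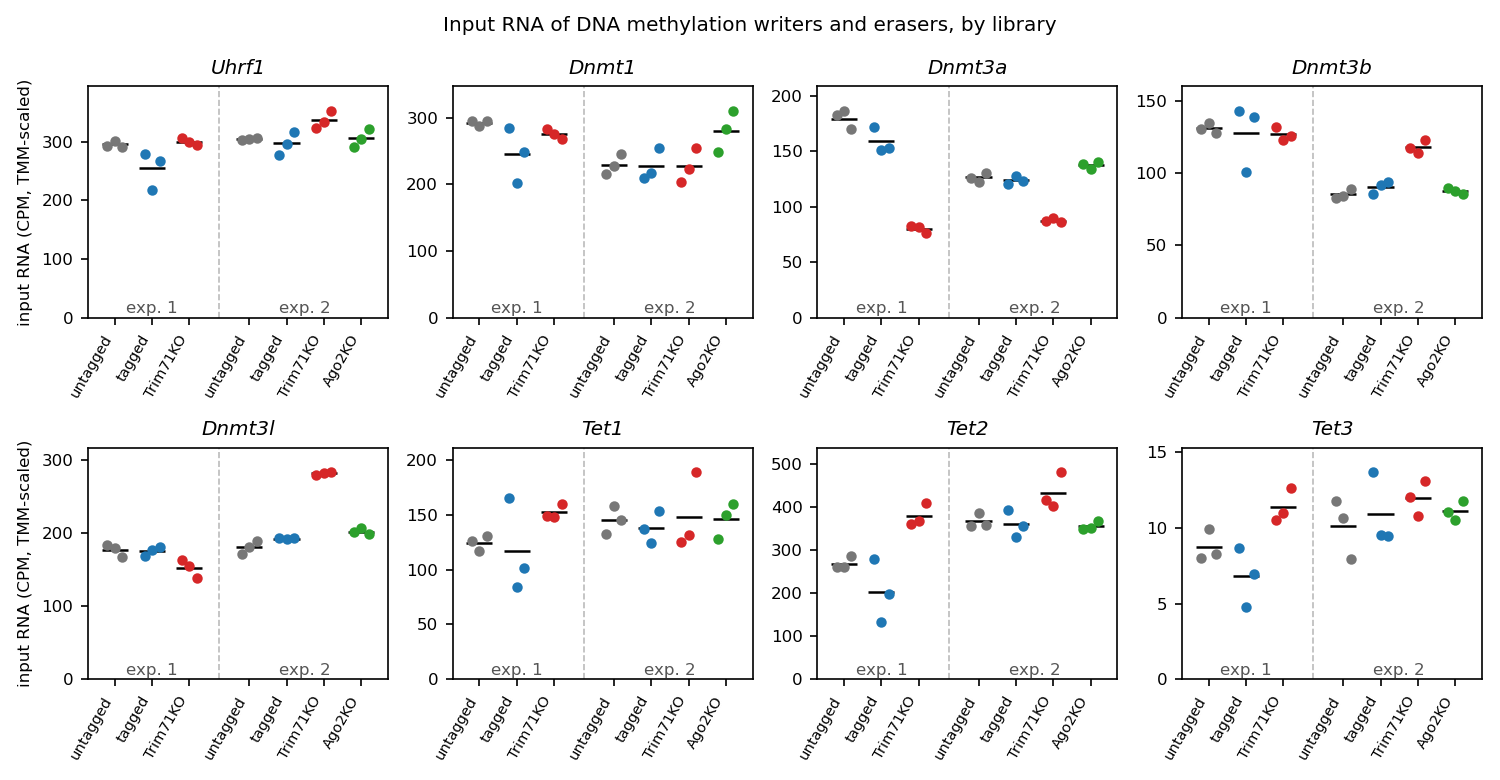
Input RNA of the 8 genes in CPM (TMM-scaled, axes from 0), with a point for each library and a line at the mean of each group of 3. Dnmt3a points of Trim71KO cells (red) lie below all others in both experiments, while Dnmt3l and Dnmt3b points of Trim71KO cells lie above all others in experiment 2.

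Dnmt3a encodes a de novo methyltransferase that acts across the genome. In experiment 1 its input level was 182, 187 and 169.9 CPM in untagged cells, 172, 151 and 154 in tagged cells and 82.7, 82.2 and 76 in Trim71KO cells. The Trim71KO libraries lay far below both other groups, with no overlap. The change against tagged cells was -0.99 (SE 0.0912, edgeR adjusted p = 3.21e-08), or 0.505-fold. Without tagged replicate 2 it was -1.01 (edgeR adjusted p = 6.93e-08). Tagged libraries of experiment 2 stood at 120.5, 128 and 123 CPM and the Trim71KO libraries at 87, 89.7 and 86.2. The fall was smaller there but again without overlap, -0.50 (SE 0.0599, edgeR adjusted p = 4.81e-07). All 6 fits of each experiment that left out a library kept the call.

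Dnmt3b encodes the other de novo methyltransferase, which is abundant in the early embryo. In experiment 2 it stood at 85.4, 91.7 and 93.5 CPM in tagged and 117, 114 and 123 CPM in Trim71KO cells. The groups did not overlap, and the rise was 0.39 (SE 0.0644, edgeR adjusted p = 4.95e-05). In experiment 1 the tagged libraries, at 143, 101 and 139 CPM, lay on both sides of the Trim71KO libraries, at 132, 123 and 126. The difference there was -0.01 (SE 0.106, edgeR adjusted p = 0.953), with a 95% interval of -0.218 to 0.199. Without tagged replicate 2, the lowest of its group, it was -0.15 (edgeR adjusted p = 0.278).

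Dnmt3l has no catalytic activity and raises that of its partners. Its level in experiment 2 was 193, 192 and 193 CPM in tagged cells, close together, and 279.7, 282 and 283 CPM in Trim71KO cells. Every Trim71KO library was higher than every other library of that experiment, and the rise was 0.55 (SE 0.0549, edgeR adjusted p = 2.42e-08). In experiment 1 tagged cells held 169, 177 and 180.2 CPM and Trim71KO cells 164, 155 and 139. The Trim71KO libraries were lower without overlap, but the difference of -0.20 (SE 0.105, edgeR adjusted p = 0.138) was not called, and without tagged replicate 2 it was -0.19 (edgeR adjusted p = 0.226).

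Among the erasers, Tet2 is, with Tet1, the main Tet enzyme of mouse embryonic stem cells. Its level in experiment 1 was 259.7, 259.9 and 286 CPM in untagged, 279.5, 133 and 197 in tagged and 361, 367 and 409.5 in Trim71KO cells. The Trim71KO libraries lay above all others, and the tagged libraries were widely spread, with replicate 2 lowest. The rise was 0.90 (SE 0.16, edgeR adjusted p = 0.000149), and 0.68 (edgeR adjusted p = 0.000389) without tagged replicate 2. In experiment 2 the tagged libraries held 393, 331 and 356 CPM and the Trim71KO libraries 417, 402 and 480.2. These groups did not overlap either, and the smaller rise was 0.27 (SE 0.0776, edgeR adjusted p = 0.0113). It lost its call with scaling by library size alone (0.20, edgeR adjusted p = 0.0905). Leaving out Trim71KO replicate 3 or tagged replicate 2 also ended the call, and over the 6 such fits the change ran from 0.19 to 0.34.

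Tet3, the Tet enzyme best known from the oocyte and zygote, was scarce. Its input level in experiment 1 was 8.68, 4.76 and 6.98 CPM in tagged and 10.5, 11 and 12.7 CPM in Trim71KO cells. The rise of 0.75 (SE 0.189, edgeR adjusted p = 0.00385) was 0.56 (edgeR adjusted p = 0.038) without tagged replicate 2. The groups overlapped in experiment 2, at 13.7, 9.5 and 9.48 and 12, 10.8 and 13.1 CPM, and the difference was 0.14 (SE 0.172, edgeR adjusted p = 0.603). Tet1, the most studied Tet enzyme of these cells, was not called in either experiment. Its change was 0.38 (SE 0.161, edgeR adjusted p = 0.0709) in experiment 1 and 0.10 (SE 0.247, edgeR adjusted p = 0.8) in experiment 2, with 95% intervals of 0.0651 to 0.696 and -0.381 to 0.587. Tet1 input in experiment 1 was 165, 84.5 and 101 CPM in tagged and 149, 148 and 159.5 CPM in Trim71KO cells, which overlap through tagged replicate 1. Without that library the rise was called, at 0.69 (edgeR adjusted p = 0.000156), and without tagged replicate 2 it was 0.20 (edgeR adjusted p = 0.347).

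The pair that copies methylation was not called in Trim71KO input. Dnmt1 stood at 210, 216 and 254 CPM in tagged and 203, 223 and 255 CPM in Trim71KO input of experiment 2, a difference of 0.00 (SE 0.0903, edgeR adjusted p = 0.994). In experiment 1 it was 0.17 (SE 0.0983, edgeR adjusted p = 0.193), which became 0.27 (edgeR adjusted p = 0.0256) without tagged replicate 1 and 0.06 (edgeR adjusted p = 0.677) without tagged replicate 2. For Uhrf1 the difference was 0.23 (SE 0.124, edgeR adjusted p = 0.147) and 0.18 (SE 0.0757, edgeR adjusted p = 0.0807), and in experiment 1 it was 0.14 (edgeR adjusted p = 0.426) without tagged replicate 2. In experiment 2 the Trim71KO libraries of Uhrf1, at 323, 333 and 352 CPM, lay above the tagged ones, at 277, 296 and 317. Deviations of tagged and Trim71KO input libraries with the same replicate number correlated at 0.206, 0.273 and 0.299. With the number as a block over all groups of experiment 2, untagged and Ago2KO included, the Uhrf1 rise was called, at 0.18 (edgeR adjusted p = 0.0194).

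**Figure D2:**
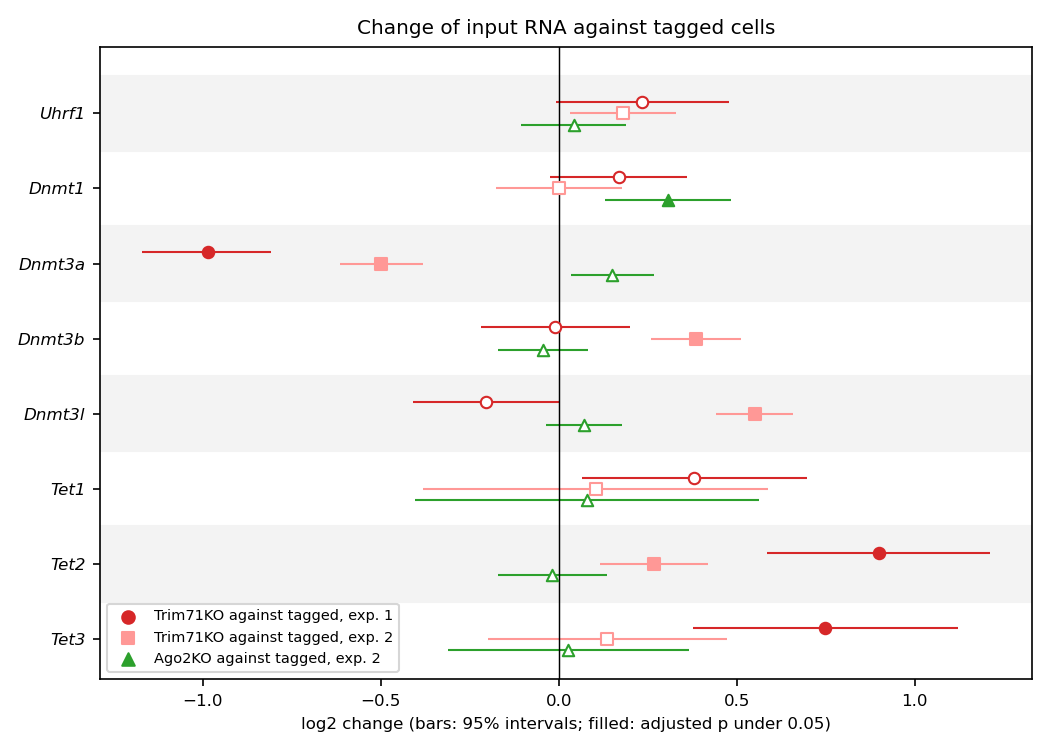
Change of input RNA against tagged cells on the log2 scale, for Trim71KO cells of experiments 1 and 2 and Ago2KO cells of experiment 2. Points are estimates, bars are 95% intervals and filled points have an adjusted p under 0.05. Dnmt3a lies at -0.99 and -0.50 in Trim71KO cells and at 0.15 in Ago2KO cells, and Dnmt3l lies on opposite sides of 0 in the Trim71KO cells of the 2 experiments.

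The experiments were then compared directly, as the Trim71KO difference of experiment 2 minus that of experiment 1 in a joint fit. Of the 8 genes 4 were called in input RNA, 3 higher and 1 lower, where 22.8% of all genes were called, 12.2% higher and 10.6% lower. For Dnmt3l the difference was 0.75 (SE 0.113, edgeR adjusted p = 8.44e-06) and for Dnmt3b it was 0.39 (SE 0.122, edgeR adjusted p = 0.0172). The fall of Dnmt3a was smaller in experiment 2, by 0.48 (SE 0.103, edgeR adjusted p = 0.00074), and the rise of Tet2 was smaller too, -0.64 (SE 0.182, edgeR adjusted p = 0.00975). The Dnmt3b difference lost its call with library size alone (0.28, edgeR adjusted p = 0.121), without tagged replicate 1 of experiment 1 (0.30, edgeR adjusted p = 0.0619) and without tagged replicate 1 of experiment 2 (0.35, edgeR adjusted p = 0.0533). The Tet2 difference without tagged input replicate 2 of experiment 1 was -0.41 (edgeR adjusted p = 0.0476). The Tet3 difference was not called (edgeR adjusted p = 0.1). It was called with library size alone (edgeR adjusted p = 0.0381) and without tagged input replicate 1 of experiment 1 (-0.82, edgeR adjusted p = 0.0331). Of the IP enrichments in Trim71KO cells, 0 of 8 differed between the experiments, where 0.0967% of all genes did, all of them higher and 0% lower. At an unadjusted p under 0.05 in edgeR the count was 2, Dnmt3l and Tet2.

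In Ago2KO input, Dnmt1 was the single gene of the 8 that was called, and none of the Dnmt3 genes was. Dnmt3a stood at 139, 134 and 140 CPM, Dnmt3b at 89.6, 87.4 and 85.3 and Dnmt3l at 201, 206 and 199 in Ago2KO cells. Dnmt3a was higher than in every tagged library, yet the change of 0.15 (SE 0.0592, edgeR adjusted p = 0.137) was not called. For Dnmt3b the change was -0.05, with a 95% interval of -0.172 to 0.0815, and for Dnmt3l it was 0.07, with an interval of -0.0373 to 0.178. The call of Dnmt1 made 1 of 8 genes, higher, where 6.96% of all genes were called, 4.38% higher and 2.57% lower. The median change was 0.06 over the 8 and 0.01 over all genes. Dnmt1 rose by 0.31 (SE 0.0902, edgeR adjusted p = 0.0377), from 210, 216 and 254 CPM in tagged to 248, 283 and 310.1 CPM in Ago2KO cells. These groups overlap, and the call was lost in 4 of 6 fits that left out a library, with library size alone (edgeR adjusted p = 0.0638) and without the filter on low counts (edgeR adjusted p = 0.0517).

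Set directly against Ago2KO cells, Trim71KO input called 5 of 8 genes, 3 higher and 2 lower, where 28.4% of all genes were called, 13.2% higher and 15.1% lower. The median was 0.12 over the 8 and -0.02 over all genes. Dnmt3a was lower in Trim71KO, at -0.65 (SE 0.0598, edgeR adjusted p = 6.51e-09), while Dnmt3l was higher by 0.48 (SE 0.0548, edgeR adjusted p = 2.17e-07) and Dnmt3b by 0.43 (SE 0.0645, edgeR adjusted p = 1.17e-05). Every one of the 6 fits that left out a library kept these Dnmt3 calls. Tet2 was higher by 0.28 (SE 0.0776, edgeR adjusted p = 0.00664) and Dnmt1 lower, -0.31 (SE 0.0902, edgeR adjusted p = 0.0118). The Dnmt1 call was lost in 3 of 6 such fits, and the Tet2 call in 1, without Trim71KO replicate 3.

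In tagged against untagged input, 0 of 8 genes were called in either experiment, where 10.6% of all genes were called in experiment 1, 5.69% higher and 4.87% lower, and 1.39% in experiment 2, 0.809% higher and 0.581% lower. At an unadjusted p under 0.05 in edgeR the count was 2 in experiment 1, Dnmt1 and Tet2, and 0 in experiment 2. Without tagged input replicate 1 of experiment 1, Dnmt1, Tet1 and Tet2 were called lower in tagged cells. With replicate 2 left out instead, none of the 8 was called, and Dnmt1 stood at -0.13 (edgeR adjusted p = 0.463), Tet1 at 0.10 (edgeR adjusted p = 0.781) and Tet2 at -0.17 (edgeR adjusted p = 0.521), against -0.25, -0.09 and -0.40 with all libraries. DESeq2 called 0 of 8 in both experiments.

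Association with Tnrc6a was read from the IP to input ratio in tagged cells against the same ratio in untagged cells. Tet3 RNA was enriched with the tag in both experiments, and Tet2 to a lesser degree, while Dnmt3b RNA was depleted in both. Experiment 1 called 6 of 8, with 2 up and 4 down, where 56.9% of all genes were called, 28.1% higher and 28.8% lower. Experiment 2 called 4 of 8, 3 higher and 1 lower, where 27.7% of all genes were called, 18.9% higher and 8.77% lower. The median over the 8 was -0.375 and -0.06, against -0.10 and -0.03 over all genes. Scaling by library size alone gave Tet3 higher and Dnmt3b, Dnmt3l and Uhrf1 lower in experiment 2, where that scaling moved the median of all genes from -0.03 to -0.24.

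**Figure D3:**
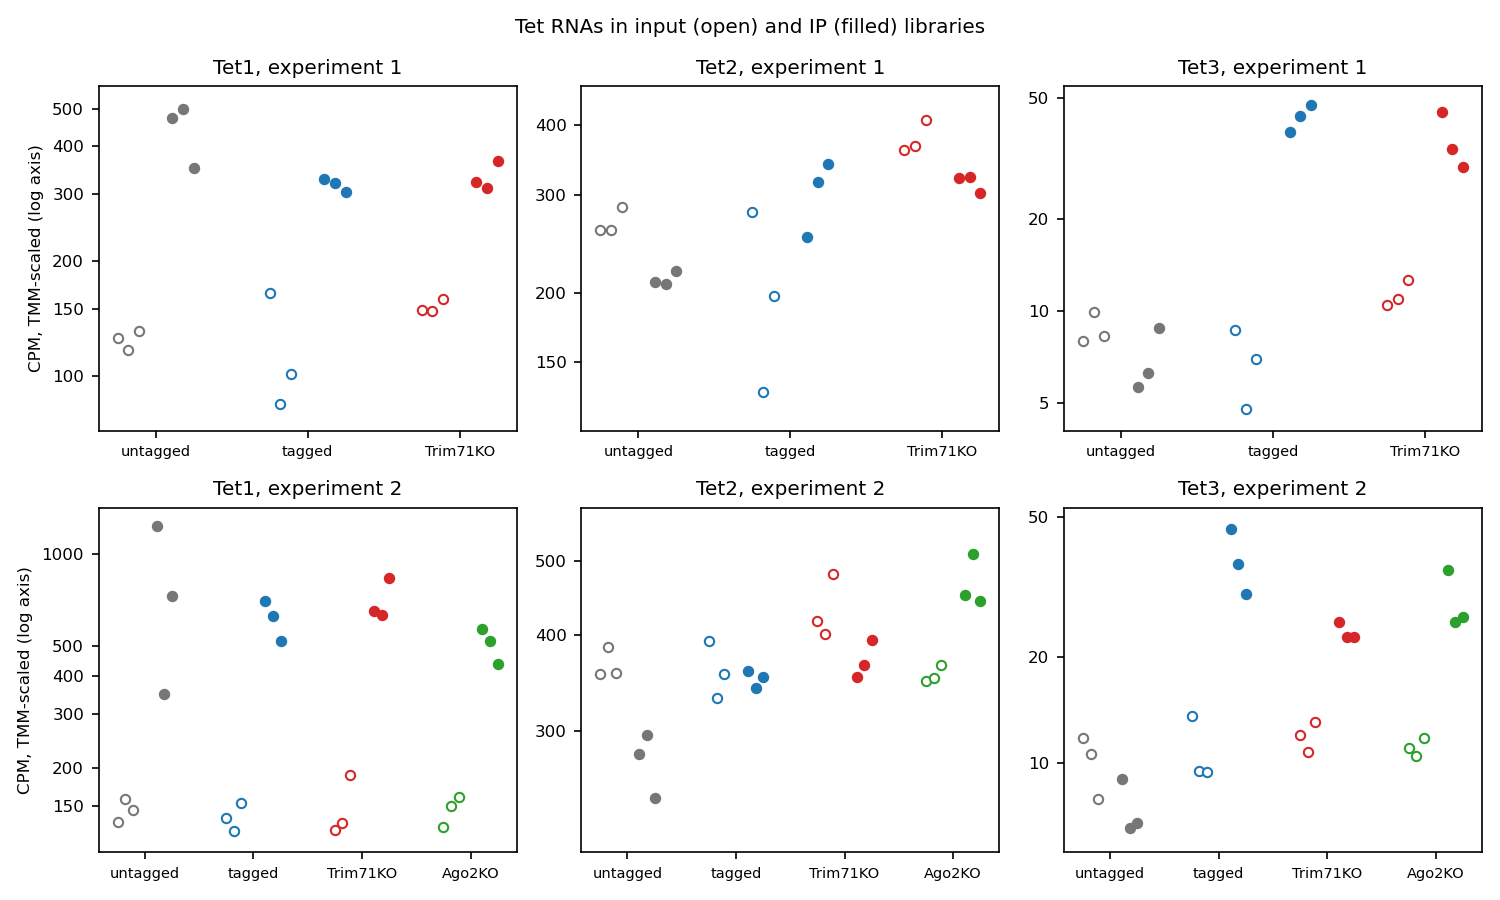
Input (open) and IP (filled) levels of Tet1, Tet2 and Tet3 in CPM on log axes, with a point for each library. Tet3 IP points exceed input points in all tagged lines but not in untagged cells, whereas Tet1 IP points exceed input points in untagged cells too.

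Tet3 had the clearest association. In experiment 1 its IP level was 5.62, 6.27 and 8.79 CPM in untagged and 38.8, 43.7 and 47.5 CPM in tagged cells, against 7.99, 9.94 and 8.26 and 8.68, 4.76 and 6.98 CPM in input. Every tagged IP library was above every untagged IP library and every input library. The IP to input ratio was 0.794-fold in untagged and 6.38-fold in tagged cells, a difference of 3.01 (SE 0.267, edgeR adjusted p = 1.11e-09). Experiment 2 had IP levels of 9.01, 6.58 and 6.76 CPM in untagged and 46.2, 36.8 and 30.3 CPM in tagged cells, again with no overlap. The difference of the ratios was 2.23 (SE 0.246, edgeR adjusted p = 3.71e-08). Leaving out tagged input replicate 2 gave 2.86 (edgeR adjusted p = 2.84e-09) in experiment 1.

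Tet2 RNA was associated less strongly. The tagged IP libraries held 252, 317 and 340.5 CPM in experiment 1 and 359, 341 and 352 CPM in experiment 2, against 209, 208 and 219 and 280.2, 296 and 245 CPM in untagged IP. Tagged IP levels were higher than untagged ones without overlap in both experiments. The enrichment was 0.92 (SE 0.226, edgeR adjusted p = 0.00127) and 0.38 (SE 0.11, edgeR adjusted p = 0.00987), and in experiment 1 it was 0.75 (edgeR adjusted p = 0.000665) without tagged input replicate 2 and 0.50 (edgeR adjusted p = 0.00552) with a gene length trend as an offset. In experiment 2 the call was lost with library size alone (0.17, edgeR adjusted p = 0.278) and with the length offset (0.15, edgeR adjusted p = 0.142), and the tagged IP to input ratio was 0.975-fold against 0.748-fold in untagged cells.

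Tet1 RNA bound the beads without the tag. In untagged cells its IP level was 474, 499.9 and 352 CPM in experiment 1 and 1235, 348 and 730 CPM in experiment 2, against 126, 117 and 131 and 132, 158 and 145 CPM in input. Each untagged IP library stood above each untagged input library, although the IP libraries of experiment 2 differed widely among themselves. The untagged ratio was 3.55-fold and 5.31-fold, and 0.559% and 0.192% of all genes had so high a mean in untagged cells. The tagged ratio was 2.71-fold and 4.46-fold. The tag added nothing that was called, with differences of -0.39 (SE 0.226, edgeR adjusted p = 0.148) and -0.25 (SE 0.346, edgeR adjusted p = 0.644). Without tagged input replicate 2 the value in experiment 1 was -0.52 (edgeR adjusted p = 0.0318), a depletion. With the gene length trend as an offset it was -0.80 (edgeR adjusted p = 0.000374).

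Of the methyltransferase RNAs, only Dnmt1 in experiment 2 was called enriched. There Dnmt1 IP levels were 248, 217 and 246 CPM in untagged and 354, 308 and 320.1 CPM in tagged cells, and the enrichment was 0.49 (SE 0.128, edgeR adjusted p = 0.00492). In experiment 1 it was 0.29 (SE 0.139, edgeR adjusted p = 0.0839). That value was called with DESeq2 (0.31, adjusted p = 0.0297) and with only the groups compared (0.36, edgeR adjusted p = 0.0305), and the gene length offset took it to -0.03 (edgeR adjusted p = 0.842). With library size alone the experiment 2 value was not called (0.28, edgeR adjusted p = 0.0739). Dnmt3l and Uhrf1 were depleted in experiment 1, at -0.96 (SE 0.149, edgeR adjusted p = 8.02e-06) and -0.86 (SE 0.175, edgeR adjusted p = 0.00019). Their tagged IP libraries, at 87, 111 and 96.7 CPM for Dnmt3l and 149.6, 218 and 200 CPM for Uhrf1, lay below all untagged IP libraries, at 197, 195 and 185 and 406, 421 and 369. In experiment 2 the values were -0.19 (SE 0.0778, edgeR adjusted p = 0.0686) and -0.17 (SE 0.107, edgeR adjusted p = 0.252). Both were called with library size alone, as given above. The Dnmt3l value was also called with DESeq2 (adjusted p = 0.0149) and with RLE size factors (edgeR adjusted p = 0.0342). With a library left out it was called in 2 of 12 fits.

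The values of Dnmt3a and Dnmt3b depended on the processing as well. For Dnmt3a the value was -0.36 (SE 0.127, edgeR adjusted p = 0.0183) in experiment 1 and 0.05 (SE 0.0841, edgeR adjusted p = 0.712) in experiment 2. The second of these was -0.16 (edgeR adjusted p = 0.164) with library size alone. For Dnmt3b it was -0.40 (SE 0.152, edgeR adjusted p = 0.0275) and -0.27 (SE 0.0923, edgeR adjusted p = 0.0276), and library size alone ended the call of experiment 1 (-0.37, edgeR adjusted p = 0.0569). The gene length offset gave larger depletions in experiment 1, -0.83 (edgeR adjusted p = 1.76e-05) for Dnmt3a and -0.61 (edgeR adjusted p = 0.000446) for Dnmt3b. With only the groups compared neither was called there (edgeR adjusted p = 0.0531 and 0.0565). With a library left out the Dnmt3a call of experiment 1 was lost in 5 of 12 fits. The Dnmt3b call was lost in 10 of 12 in experiment 1 and in 6 of 12 in experiment 2. Without tagged input replicate 2 of experiment 1, Dnmt3a stood at -0.34 (edgeR adjusted p = 0.026), Dnmt3b at -0.49 (edgeR adjusted p = 0.00255), Dnmt3l at -0.89 (edgeR adjusted p = 2.46e-05) and Uhrf1 at -0.91 (edgeR adjusted p = 6.5e-05).

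**Figure D4:**
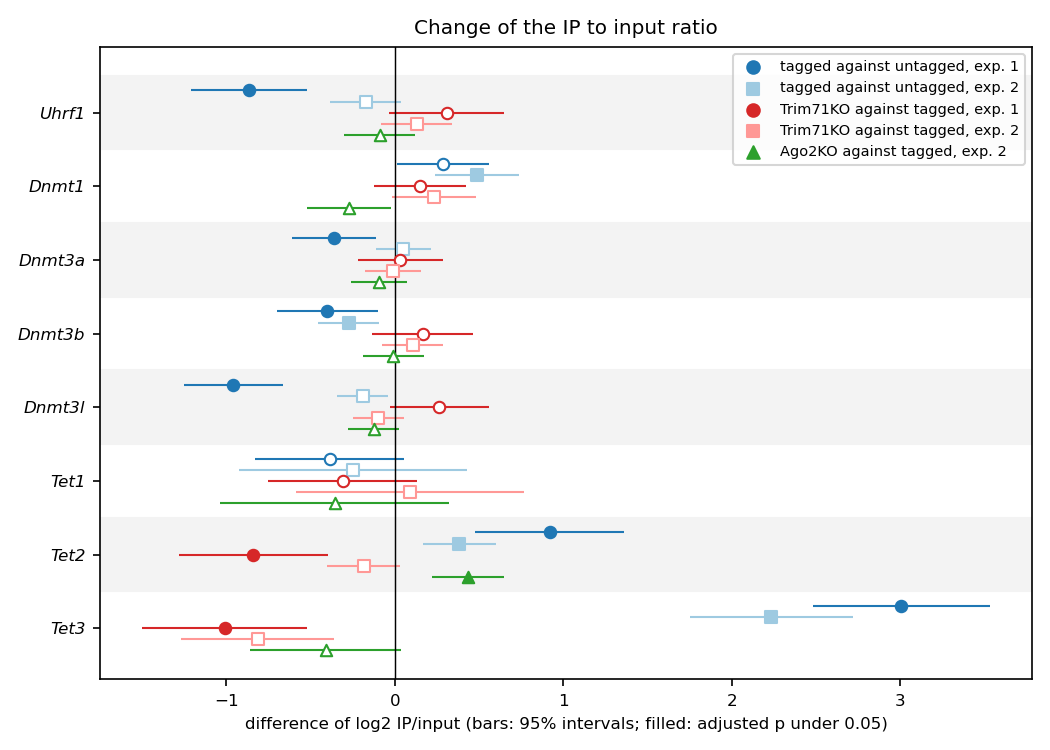
Differences in the log2 IP to input ratio for tagged against untagged cells, Trim71KO against tagged cells and Ago2KO against tagged cells. Points are estimates, bars are 95% intervals and filled points have an adjusted p under 0.05. Tet3 stands at 3.01 and 2.23 for the tag and below 0 for Trim71KO, while the methyltransferases lie nearer to 0 in the knockout comparisons.

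Dependence on Trim71 was tested as the IP to input ratio in Trim71KO against tagged cells. Experiment 1 called 2 of 8, both lower, where 3.74% of all genes were called, 0.272% higher and 3.47% lower, and both calls ended without tagged input replicate 2 of that experiment. The median over the 8 was 0.09, against -0.04 over all genes. The called genes were Tet3, at -1.01 (SE 0.249, edgeR adjusted p = 0.0194), and Tet2, at -0.84 (SE 0.225, edgeR adjusted p = 0.0348). Tet3 IP levels in Trim71KO cells, at 44.9, 33.9 and 29.7 CPM, overlapped those of tagged cells, while Tet3 input was higher in Trim71KO as given above. Tet2 IP levels, at 322, 323 and 302 CPM, overlapped too, and again input was higher. Without tagged input replicate 2 the values were -0.75 (edgeR adjusted p = 0.116) for Tet3 and -0.55 (edgeR adjusted p = 0.0886) for Tet2. With a library left out the calls were lost in 8 and 9 of 12 fits, and scaling by library size alone ended both (edgeR adjusted p = 0.0504 and 0.0918).

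In experiment 2, 0 of 8 were called, where 1.49% of all genes were called, 0.753% higher and 0.738% lower. The median was 0.04 over the 8 and 0.01 over all genes. At an unadjusted p under 0.05 in edgeR the count was 1, Tet3, which DESeq2 also called. Here the Tet3 IP level itself was lower in Trim71KO cells, at 25.1, 22.8 and 22.8 CPM against 46.2, 36.8 and 30.3 in tagged cells, without overlap. The ratio went from 3.46-fold in tagged to 1.97-fold in Trim71KO cells, a difference of -0.81 (SE 0.23, edgeR adjusted p = 0.0758). Deviations of tagged and Trim71KO IP libraries with the same replicate number correlated at 0.318, 0.183 and 0.333. With the number as a block within fraction over all groups of the experiment, Tet3 was called (-0.81, edgeR adjusted p = 0.0113), so that 1 of 8 genes was. DESeq2 gave -0.83 (adjusted p = 0.0207). Tet2 stood at -0.19 (SE 0.11, edgeR adjusted p = 0.448), and it was called with the gene length trend as an offset (-0.34, edgeR adjusted p = 0.0179). For the Dnmt genes and Uhrf1, the values lay between -0.10 and 0.31 over both experiments and none was called. Dnmt3a IP levels were lower in Trim71KO cells, at 67, 71.2 and 78.6 CPM in experiment 1 and 100.3, 91 and 84.1 CPM in experiment 2, along with its input, and its ratio differed by 0.03 and -0.01.

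Without Ago2, 1 of 8 genes was called in the IP to input ratio, where 4.16% of all genes were called, 0.384% higher and 3.77% lower. The median was -0.11 over the 8 and 0.00262 over all genes. Tet2 was higher by 0.43 (SE 0.11, edgeR adjusted p = 0.0182), with IP levels of 451, 510.2 and 443 CPM in Ago2KO cells, above every tagged IP library. Its input levels, 348, 352 and 366 CPM, lay within the tagged range. The call was lost in 5 of 12 fits that left out a library, in which the change ran from 0.35 to 0.49. Tet3 stood at -0.41 (SE 0.229, edgeR adjusted p = 0.475) with a 95% interval of -0.859 to 0.0387, and its Ago2KO ratio was 2.6-fold. The 3 Dnmt3 genes lay between -0.13 and -0.01 without a call.

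Compared with each other, Trim71KO and Ago2KO cells differed in the IP to input ratio of 2 of 8 genes, where 11.8% of all genes were called, 8.94% higher and 2.86% lower. The median was 0.10 over the 8 and -0.01 over all genes. Tet2 was lower in Trim71KO, -0.62 (SE 0.11, edgeR adjusted p = 0.000272), and this call was kept in 12 of 12 fits that left out a library. Dnmt1 was higher, 0.51 (SE 0.127, edgeR adjusted p = 0.00862), a call lost in 1 of 12, without Trim71KO IP replicate 3. For Tet3 the knockouts were not told apart, at -0.40 (SE 0.231, edgeR adjusted p = 0.303) with a 95% interval of -0.856 to 0.0481.

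Of the wider pathway, a list of 51 genes was looked up, of which 49 were tested in experiment 1 and 50 in experiment 2. In Trim71KO input 10 were higher and 11 lower in experiment 1, where 16.5% of all genes were higher and 17.4% lower. In experiment 2, 17 were higher and 8 lower, where 13.5% of all genes were higher and 13.7% lower. The experiment 1 counts were 5 higher and 9 lower without tagged input replicate 2, where 25% of all genes were called. The median change was 0.03 and 0.09, against -0.01 in both experiments over all genes. In experiment 1 the pocket proteins Rbl2 and Rbl1 rose by 0.87 and 0.63, and Zbtb4, a methyl-CpG reader, by 0.70. The lowest there were Mat2a, which makes the methyl donor, at -0.60, the chromatin remodeller Hells at -0.54 and its partner Cdca7 at -0.53. The highest of experiment 2 were Prdm14, a repressor of Dnmt3 genes, at 0.53, the reader Zbtb38 at 0.50 and the repair enzyme Apex1 at 0.48. The lowest were Dppa3, which keeps Uhrf1 off chromatin, at -1.48, and the glycosylases Neil3 and Neil2 at -0.51 and -0.43. Each of these changes passed the edgeR test. The experiment 1 change of Zbtb4 was not called (0.63, edgeR adjusted p = 0.0556) without tagged input replicate 2, while Rbl1 stood at 0.56 (edgeR adjusted p = 0.00332), Mat2a at -0.64 (edgeR adjusted p = 0.00191), Hells at -0.53 (edgeR adjusted p = 0.000903) and Cdca7 at -0.46 (edgeR adjusted p = 0.000728).

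Rbl2 and Prdm14, both repressors of Dnmt3 genes, were read library by library. Rbl2 input RNA in experiment 1 was 8.62, 6.94 and 6.01 CPM in tagged and 13.1, 12.7 and 13.6 CPM in Trim71KO cells, without overlap, 0.87 (SE 0.148, edgeR adjusted p = 9.19e-05), and without tagged replicate 2 the change was 0.86 (edgeR adjusted p = 0.000875). In experiment 2 it was 16.8, 15.3 and 15.6 CPM in tagged, 19, 15.3 and 19.5 CPM in Trim71KO and 13.8, 14.5 and 14.8 CPM in Ago2KO cells. Neither of these differences was called, at 0.17 (SE 0.198, edgeR adjusted p = 0.566) and -0.15 (SE 0.202, edgeR adjusted p = 0.753). Prdm14 rose in the Trim71KO cells of both experiments, by 0.42 (SE 0.0921, edgeR adjusted p = 0.00117) and 0.53 (SE 0.0668, edgeR adjusted p = 9.1e-07), and in Ago2KO cells by 0.36 (SE 0.067, edgeR adjusted p = 0.00106). Its experiment 1 rise was 0.38 (edgeR adjusted p = 0.00722) without tagged replicate 2. Its Ago2KO libraries, at 53.5, 51.1 and 51.6 CPM, lay above all tagged ones, at 39.6, 42.3 and 40.2. In Ago2KO input 4 of 50 pathway genes were higher and 2 lower, where 4.38% and 2.57% of all genes were. These are few genes, and the difference from those shares was not tested. Zbtb38 at 0.56 and Nanog at 0.33 were higher beside Prdm14, and the glycosylases Smug1 and Tdg were lower, at -0.50 and -0.26.

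In the IP, the highest values of the pathway list belonged to a pocket protein and to readers of methylated DNA. Tag enrichment called 17 of 49 pathway genes higher and 22 lower in experiment 1, where 28.1% and 28.8% of all genes were. In experiment 2 it called 16 of 50 higher and 2 lower, where 18.9% and 8.77% of all genes were. The experiment 1 counts were 16 and 19 without tagged input replicate 2. Rbl2 (5.79 and 4.38) and Zbtb4 (5.72 and 4.33) had the highest values of the list in both experiments, and these are larger than those of Tet3. Mbd2, a reader of methylated CpG, stood at 1.82 in experiment 2. In Trim71KO cells 5 pathway genes were lower and 0 higher in experiment 1, where 3.47% and 0.272% of all genes were. Among the lower ones were Zbtb4 (-1.70) and Rbl2 (-1.04), whose input RNA was higher in those cells, as given above. Without tagged input replicate 2 these counts were 3 lower and 1 higher. In experiment 2, 2 were higher and 0 lower, Cdca7 (0.46) and Lin28a (0.40), where 0.753% and 0.738% of all genes were. In Ago2KO cells 4 were lower and 0 higher, where 3.77% and 0.384% of all genes were, led by Zbtb4 (-1.37), Cdca7 (-1.09) and Zbtb38 (-0.68). Rbl2 was not called in Ago2KO cells or in the Trim71KO cells of experiment 2.

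Markers of embryonic stem cells and of other cell types moved with the Trim71KO label in input, and their part in the results above was not tested. Of the 8 stem cell markers 3 were higher in experiment 1 and 5 in experiment 2, with 0 lower. In Ago2KO cells 4 were higher and 1 lower. They summed to 6198 to 6707 CPM in tagged and 7166 to 7338 CPM in Trim71KO input of experiment 1. In experiment 2 they summed to 6902 to 7111 in tagged, 7886 to 8120 in Trim71KO and 7880 to 7948 in Ago2KO input. Of the primitive endoderm markers 6 of 7 were lower in experiment 1 and 5 of 6 in experiment 2, and 3 of 6 were lower in Ago2KO cells. Their summed level was 57.8 to 71.57 CPM in tagged and 12.11 to 14.3 CPM in Trim71KO input of experiment 1. In experiment 2 it was 20.53 to 22.35 CPM in tagged, 7.569 to 9.653 in Trim71KO and 9.733 to 10.95 in Ago2KO input. Germline markers summed to 110.8 to 135 CPM in tagged and 51.24 to 56.39 CPM in Trim71KO input of experiment 1, and to 187 to 192.1 and 83.08 to 92.95 CPM in experiment 2, with 124.5 to 150.4 CPM in Ago2KO input. Primed epiblast markers, of which Fgf5 had no entry, summed to 40.49 to 42.66 CPM in tagged and 50.47 to 54.72 CPM in Trim71KO input of experiment 1. In experiment 2 they summed to 65.43 to 69.81 and 105.3 to 123.1 CPM. Of the 4 with values, 1 was higher and 1 lower in experiment 1, with a median change of -0.09, and 1 was higher and 2 lower in experiment 2, with a median of -0.51. Otx2 was the higher one, and Lef1 was lower, in both experiments. Of the 4 germline markers 3 were lower in experiment 1 and 4 in experiment 2, and 3 in Ago2KO cells. Foxa2 was at a count of 0 in at least 1 Trim71KO input library of experiment 1, and no other of these markers was at 0 in an input library. Of 6 fibroblast markers only Col1a1 and Thy1 had an entry, and Col1a2, Col3a1, Postn and Dcn had none in either experiment. The 2 summed to 22.64 to 24.54 CPM in tagged and 57.96 to 61.84 CPM in Trim71KO input of experiment 1. In experiment 2 they summed to 34.19 to 35.76 and 49.48 to 51.91 CPM. In Trim71KO input 2 of 2 were called higher in experiment 1, and 1 of 2 in experiment 2, with median changes of 1.19 and 0.145.

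For each of the 8 genes the most similar pattern over the 21 input libraries, centred within each experiment, was sought among 12724 genes by Pearson's r of log2 CPM. The libraries share genotype groups and the values are descriptions without a test. Dnmt3a was followed most closely by Arrdc4 (r = 0.972) and Klf10 (0.971), and Dnmt3l by Myc (0.926) and Srrt (0.920). For Dnmt3b they were Dhx37 (0.903) and Hsph1 (0.890), and Hsph1 was also close to Dnmt3l (0.918). Among the erasers, Tet1 was closest to Sp1 (0.964), Tet2 to Chd9 (0.968) and Tet3 to Igf1r (0.902). Dnmt1 was closest to Aco1 (0.915) and Uhrf1 to Edc4 (0.945). Without tagged input replicate 2 of experiment 1 the value of Dnmt3a and Arrdc4 was 0.972 and that of Dnmt3l and Myc 0.925. Tet3 and Igf1r then gave 0.832 and Uhrf1 and Edc4 0.895. These values were taken only for the 3 genes picked with all libraries, and the 12724 genes were not searched again. Within those 3 the order changed for Dnmt3b, with Hsph1 at 0.951 and Jarid2 at 0.921 above Dhx37 at 0.879. It changed for Dnmt3l too, with Hsph1 (0.935) and Srrt (0.934) above Myc. For Uhrf1, Edc4 stayed first and Cad (0.846) stood above Kdm5c (0.841).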

How the data were processed

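RIP-seq libraries of 14 groups of 3 were analysed, 18 libraries in experiment 1 and 24 in experiment 2. The authors deposited a table of read counts per gene for each experiment, and reads were processed with bcl2fastq 2.20 and STAR 2.7.3a against GRCm38/mm10, per the submitters' processing notes. The counting tool, its annotation and its use of strand are not given in the sources used here, and 18 and 24 RPKM columns in the deposited tables were not used.

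Counts were fitted with edgeR 4.0.16 in R 4.3.3 (filterByExpr, TMM, quasi-likelihood F test), taking 1 mean per group and all groups of an experiment together. After the filter 18772 of 18825 and 19778 of 19866 genes were tested, and p-values were adjusted over all of them by Benjamini-Hochberg. IP enrichment was an interaction of fraction and genotype, and the experiments were compared in a joint fit over 18620 genes. A standard error is the log2 change over the square root of F, and 95% intervals are 1.96 standard errors wide on each side. Depth enters through the counts, and intervals do not cover errors of mapping or counting. The script was tested on simulated data.

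The members and lists were chosen with earlier results of these data known. Pathway genes were named by size, the 3 largest called changes each way, plus Rbl1, Rbl2 and Prdm14 (1 gene that this rule names is not reported here), and similar genes by the 3 highest correlations among genes with a mean log2 CPM of at least 2. Alternatives were RLE size factors, library size alone, no filter, DESeq2 1.42.0, blocks for replicate number, only the groups compared, each library left out and a gene length offset. The last of these, leaving out libraries in the comparison of experiments and leaving out tagged input replicate 2 for pathway genes were chosen after seeing the data. Replicate numbers come from the labels. In experiment 2 the deviations of tagged and Trim71KO libraries with the same number correlated in IP (0.318, 0.183 and 0.333) and input (0.206, 0.273 and 0.299), so the numbers were taken to pair these libraries. In the other comparisons of genotypes at least 1 pair was at or under 0.1. The block within fraction was nonetheless fitted over all groups of an experiment. Tagged and untagged input libraries of experiment 2 with the same number correlated at -0.0779, -0.145 and -0.0426. IP and input of 1 culture share a number too, and their deviations correlated at 0.104, 0.139 and 0.183 in tagged cells of experiment 2, while in each other line at least 1 pair was under 0.1. No pair of libraries in a group looked like 1 library deposited in duplicate, since the chi-square per gene ran from 2.87 to 64.1 over 42 pairs.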

Additional observations from a re-analysis of the deposited data

Results flagged for a closer look

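In 4 of the 8 genes the Trim71KO difference in input RNA was not the same in the 2 experiments, by the test of the difference itself in the joint fit. It was higher in experiment 2 for Dnmt3l, by 0.75 (SE 0.113, edgeR adjusted p = 8.44e-06), for Dnmt3a, by 0.48 (SE 0.103, edgeR adjusted p = 0.00074), and for Dnmt3b, by 0.39 (SE 0.122, edgeR adjusted p = 0.0172). It was lower for Tet2, at -0.64 (SE 0.182, edgeR adjusted p = 0.00975). Dnmt3a and Tet2 moved the same way in both experiments with different sizes, while Dnmt3l was called in experiment 2 alone and had the opposite sign in experiment 1. In 12 fits that each dropped 1 input library, the difference ran from 0.69 to 0.80 for Dnmt3l, from 0.42 to 0.55 for Dnmt3a and from -0.93 to -0.41 for Tet2, called in 12 of 12 fits. For Dnmt3b it ran from 0.30 to 0.53 and was called in 10 of 12.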

How the results depend on the processing

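No log2 change of the 8 genes that was called in the main fit (TMM, all libraries) turned its sign under any alternative tried. Values called under an alternative alone could turn. The tag-specific Dnmt1 value of experiment 1 was 0.31 with DESeq2, where it was called, and -0.03 with the gene length offset. Tet1 in tagged against untagged input of experiment 1 ran from -0.39 to 0.10 with a library left out, and was called without tagged input replicate 1. The number of the 8 genes called moved by over 1.5 times as follows. For Trim71-dependent IP enrichment in experiment 1 it was 2, and 0 with library size alone, 1 with only the groups compared and 0 to 3 with a library left out, 0 without tagged input replicate 2. For the same comparison in experiment 2 it was 0, and 1 with library size alone, 1 with DESeq2, 2 with the gene length offset and 0 to 1 with a library left out. With a replicate block, for number within fraction or for the culture, it was 1, Tet3, and over all genes these blocks called 470 and 522 in place of 295. In Ago2KO input it was 1, and 0 with library size alone, 0 without the filter and 0 to 1 with a library left out. Leaving out a library gave 0 to 3 for tagged input and 3 to 5 for Trim71KO input of experiment 1, both highest without tagged input replicate 1. It gave 0 to 1 for Ago2-dependent IP enrichment, 1 to 2 for Trim71KO against Ago2KO IP and 0 to 1 for the IP difference between experiments. Smaller moves were 5 to 7 in place of 6 (4 to 7 with a library left out) for tag-specific IP of experiment 1, 3 to 5 in place of 4 for that of experiment 2 and 3 to 5 in place of 4 for Trim71KO input of experiment 2. The replicate block also called Tet1 in Trim71KO input of experiment 1 (0.42, edgeR adjusted p = 0.0364), where the numbers do not pair the libraries. Library size alone moved the median of all genes from -0.03 to -0.24 in tag-specific IP of experiment 2, from -0.04 to 0.07 in Trim71-dependent IP of experiment 1 and from 0.00262 to 0.11 in Ago2-dependent IP. The share of calls that were higher then went from 68.4% to 36.5%, from 7.25% to 24.6% and from 9.25% to 26.1%. It also went from 53.9% to 35.3% in tagged input of experiment 1, from 49.6% to 34.6% and from 63% to 51.1% in Trim71KO and Ago2KO input of experiment 2, and from 50.5% to 75.7% (38.6% with RLE) in Trim71-dependent IP of experiment 2. The cause of these moves was not tested. Tet3, with input under 14 CPM, has the lowest level of the 8.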
